A study of Mus musculus with 55 samples.

Results

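RNA-seq counts of whole livers labelled Setd8-LKO and treated with TCPOBOP were compared with those of untreated wild type livers, for the genes that the authors list in this comparison and do not list for TCPOBOP-treated wild type livers. These genes were found by their gene identifiers. They are 3394 of the 3900 genes listed for Setd8-LKO + TCPOBOP (87.0%). The other 506 are listed in both comparisons, and make up 13% of the Setd8-LKO + TCPOBOP list and 70.4% of the 719 genes listed for WT + TCPOBOP. There were 4 livers of Setd8 lox/lox mice carrying AlbCre, in which the albumin promoter, active in hepatocytes, drives Cre, taken 24 h after 3 mg/kg TCPOBOP. There were 5 livers of untreated wild type mice, and all mice were 45 to 50 days old. Genotype and treatment changed together, so their contributions cannot be told apart. The labels call the controls untreated, while the methods name corn oil as vehicle and the study's reporting summary names DMSO, so an injection may differ as well. A gene that is not listed for WT + TCPOBOP is not shown to be unchanged there, and its level in those livers was not analysed here.

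Setd8 (gene symbol Kmt5a) is the enzyme that places a single methyl group on lysine 20 of histone H4, a mark that cells write in G2 and mitosis and need for chromosome compaction and genome stability. TCPOBOP activates the nuclear receptor CAR, which in mouse liver switches on drug-metabolizing genes and drives hepatocytes into the cell cycle. Hepatocytes otherwise rest outside the cycle and make most plasma proteins, bile acids, glucose and urea.

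Counts over the members summed to between 10244633 and 11875892 reads in the untreated libraries and to between 4035713 and 6299914 in the libraries labelled Setd8-LKO. These sums cover listed genes only and are not the depth of the libraries. The authors selected the genes on these same 9 libraries, so every count of genes below describes a selected list and is not independent evidence that the livers differ. Kmt5a, the targeted gene and itself a member, was not lower in the libraries labelled Setd8-LKO. Its normalized counts were 613, 567, 761, 563 and 715 in the untreated livers and 1341, 1465, 1338 and 1313 in the others. Whether the floxed part is missing cannot be read from a count of all its exons, and the groups are named by their labels throughout. The RNA comes from all cells of the liver, so fewer cells of a type and less RNA per cell cannot be told apart.

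Most members were low in untreated liver when they rose and abundant there when they fell. Of the 3394 members 3256 passed the filter on low counts, and the remaining 138 had a higher mean in the libraries labelled Setd8-LKO in 98 cases and a lower one in 40. A gene was called where edgeR's quasi-likelihood test gave an adjusted p under 0.05 and the log2 fold change reached 1 in either direction. Of the tested members 1625 were called higher, 1123 were called lower and 508 were not called. The share called was 84.4% of tested members, against 84.9% of all tested listed genes. Called higher were 49.9% against 50.5%, and called lower 34.5% in both, so members were called about as often as the whole list. The groups of libraries did not overlap for 2802 members (86.1%, against 86.7% of all tested listed genes). With the size factors that DESeq2 computes from the listed genes, which shift the log2 fold changes of members by a median of -0.82, 622 members were called higher and 1286 lower, so that 32.6% of calls were higher in place of 59.1%. Of the 2707 called members that could be compared, none changed direction under that scaling. With TMM factors over the listed genes 1661 members were called higher and 1137 lower, close to the main fit. Size factors named below are those of DESeq2.

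**Figure D1:**
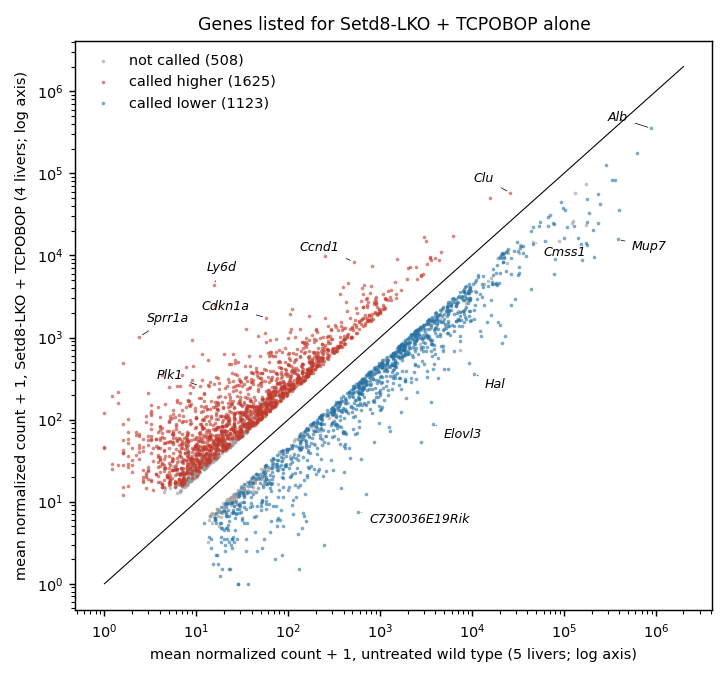
Each point is 1 of the 3256 tested members, placed by its mean normalized count plus 1 in 5 untreated livers (x axis) and in 4 livers labelled Setd8-LKO (y axis), both on log axes, with the line of equality. The 1625 genes called higher lie mostly at low untreated counts, and the 1123 called lower reach the most abundant transcripts of the liver.

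The median log2 fold change was 1.80 among members called higher and -1.55 among those called lower. The median member called higher had a mean of 29.4 normalized counts in untreated liver, and the median member called lower had 836. For the genes listed in both comparisons the medians were 2.56 and -2.74. The members thus moved less in size than the genes listed in both, with a median absolute log2 fold change of 1.58 against 2.33. Genes listed in both were selected in both comparisons, which share their untreated libraries, so this difference in size is a description only. A log2 fold change of 3 or more in size was reached by 313 members called higher and 122 called lower. Members closest to the limit of the authors' list were Lonp2 (-1.0004), Met (-1.0008) and 9330111N05Rik (1.0008). By type, 2599 members were protein-coding (76.6%), 267 antisense and 176 lincRNA genes.

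The next shares give only the size of the shift, since their direction was fixed by calling the genes on these same libraries. Members called higher held between 1.96% and 2.63% of the members' normalized counts in untreated livers and 28.3%, 27.8%, 16.3% and 19.3% in Setd8-LKO replicates 1 to 4. Members called lower held between 84.4% and 90.0% in untreated livers and between 65.7% and 70.1% in the livers labelled Setd8-LKO. Over all members the normalized counts summed to between 10535938 and 13028329 in untreated livers and to between 3159712 and 4739296 in the others, so the 2 groups did not overlap.

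Nearly all members among the mitosis genes were higher in the livers labelled Setd8-LKO. Of the 20 listed genes of mitotic entry and the spindle checkpoint, 14 are members, of which 13 were called higher and 1 lower. All 17 members among the 20 listed spindle, kinetochore and cytokinesis genes were called higher. Plk1, the kinase that drives entry into mitosis, had normalized counts of 6, 5, 15, 11 and 13 in untreated livers and 264, 228, 321 and 207 in the livers labelled Setd8-LKO. Its log2 fold change was 4.60 (SE 0.31, adjusted p = 9.85e-06). Cenpe, the kinesin that moves chromosomes to the spindle equator, went from 1, 4, 8, 3 and 10 to 190, 163, 216 and 87 (log2 fold change 4.94, SE 0.47). Neither gene overlapped between the groups, and Setd8-LKO replicate 4, the one such library of run A, was the lowest of its group for both.

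The other mitosis genes followed the same pattern at different levels. Bub1 and Ttk, kinases of the spindle checkpoint, were below 12 normalized counts in every untreated liver and between 53 and 119 in the livers labelled Setd8-LKO. Mki67, the proliferation marker Ki-67, was at 604, 707, 495 and 189 against 13 to 64 (log2 fold change 4.17). Kif20a, a kinesin of cytokinesis with the highest mean normalized count in the livers labelled Setd8-LKO among the 17 members of its list, was at 622, 464, 728 and 539 against 58 to 80. Its log2 fold change was 3.13 (SE 0.19), and the groups were far apart. The median log2 fold change was 3.56 for the mitotic entry list and 3.63 for the spindle list, beside 1.17 over all tested listed genes. Pttg1, the securin that holds back separation of sister chromatids, was the gene called lower, with 331, 423, 335, 344 and 346 against 151, 113, 223 and 157. With size factors over the listed genes 13 and 15 of these genes remained called higher, and all but Pttg1 kept a positive value.

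**Figure D2:**
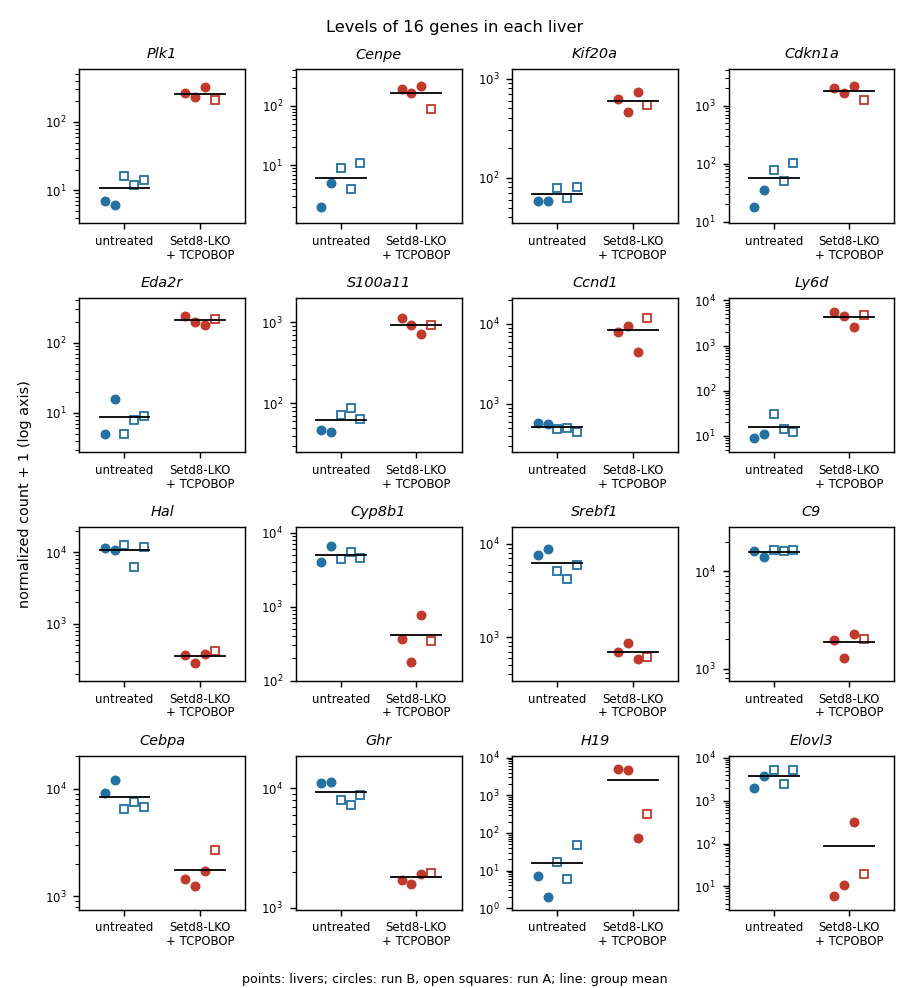
Normalized counts plus 1 (y axes, log scale) of 16 members in each untreated liver and each liver labelled Setd8-LKO (x axes), with circles for run B, open squares for run A and a line at the group mean. The groups are apart in all 16 panels, while H19 and Elovl3 show a wide spread among the 4 livers labelled Setd8-LKO.

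DNA replication differed from mitosis in which list its genes fell into. Of 18 listed replication genes 11 are listed in both comparisons and 7 are members, whereas of 40 listed genes of the 2 mitosis lists 9 are listed in both. This split is a description, and the comparisons share their untreated libraries. Ccnb1 (cyclin B1), listed in both, had a mean of 7.4 normalized counts in untreated, 24.6 in WT + TCPOBOP and 432 in the livers labelled Setd8-LKO. Mcm2, a subunit of the replicative helicase and also listed in both, had means of 74.4, 307 and 439. Among the 7 members, Cdt1, Mcm4, Fen1 and Rrm1 were called higher with log2 fold changes from 1.23 to 1.78. Tk1, the thymidine kinase of the salvage pathway, was called lower (631, 596, 667, 312 and 901 against 235, 344, 247 and 313, with overlapping groups). Ccne1 and Orc1 had log2 fold changes of 1.39 and 1.21 and were not called (edgeR adjusted p = 0.0556 and 0.105). With size factors over the listed genes edgeR called none of the replication members higher, and 3 were higher at an unadjusted p under 0.05.

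The promoters of 4 mitosis genes are shown because an H3K27ac peak, a mark of active promoters, lies within 1000 bp of the gene start in the Setd8-LKO list and not in the untreated list. The sequences come from RefSeq on GRCm38.p6, run 5′ to 3′ on the gene's strand from 250 bases before to 50 bases after the start, and carry in capitals the words TTTGAA (the cell cycle homology region, CHR, on either strand) and CCAAT (the CCAAT box, on either strand). Plk1 is at chr7:122159185-122159484 on the plus strand, Cenpf at chr1:189688037-189688336, Kif18b at chr11:102925075-102925374 and Bub1 at chr2:127831810-127832109, the last 3 on the minus strand.
Plk1: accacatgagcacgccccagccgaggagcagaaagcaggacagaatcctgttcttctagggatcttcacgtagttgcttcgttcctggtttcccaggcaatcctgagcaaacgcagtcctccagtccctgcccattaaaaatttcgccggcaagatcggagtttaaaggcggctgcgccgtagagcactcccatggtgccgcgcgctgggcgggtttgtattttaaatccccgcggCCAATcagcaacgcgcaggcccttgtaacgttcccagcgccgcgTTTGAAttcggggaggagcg
Cenpf: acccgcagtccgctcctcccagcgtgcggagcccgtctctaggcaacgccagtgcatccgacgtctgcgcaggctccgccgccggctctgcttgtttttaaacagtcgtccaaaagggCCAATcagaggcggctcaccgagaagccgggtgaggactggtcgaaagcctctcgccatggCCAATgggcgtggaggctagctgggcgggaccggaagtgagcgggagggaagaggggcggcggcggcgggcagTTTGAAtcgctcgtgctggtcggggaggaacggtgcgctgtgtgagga
Kif18b: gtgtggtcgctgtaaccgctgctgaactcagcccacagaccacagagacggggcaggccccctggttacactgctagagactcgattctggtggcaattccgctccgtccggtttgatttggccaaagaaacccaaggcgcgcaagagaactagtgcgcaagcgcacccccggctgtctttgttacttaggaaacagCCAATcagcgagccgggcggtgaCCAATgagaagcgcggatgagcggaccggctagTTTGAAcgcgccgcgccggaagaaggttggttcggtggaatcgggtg
Bub1: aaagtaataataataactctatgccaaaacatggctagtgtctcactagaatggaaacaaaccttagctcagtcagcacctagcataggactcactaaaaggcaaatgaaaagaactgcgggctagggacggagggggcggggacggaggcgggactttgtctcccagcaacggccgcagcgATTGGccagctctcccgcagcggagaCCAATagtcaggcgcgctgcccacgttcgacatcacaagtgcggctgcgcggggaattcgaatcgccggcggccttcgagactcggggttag

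Plk1, Cenpf and Kif18b hold both words in this window, with TTTGAA downstream of CCAAT in each, and Bub1 holds CCAAT in both orientations and no TTTGAA. A sequence was matched for 26 of the 31 members of the 2 mitosis lists. Of these 20 hold TTTGAA (76.9%, 95% Clopper-Pearson interval 56.4 to 91.0%), against 15.6% of all 16538 promoters in the table. CCAAT was in 73.1% against 38.8%, and both words were in 61.5% against 6.40%. Such a word is a description of the sequence and not a binding site. Over the protein-coding members as a whole only 1957 of 2599 had a sequence. Among those with a sequence, TTTGAA was in 15.9% of 983 members called higher and 11.5% of 641 called lower, against 15.6% of all promoters. CCAAT was in 39.4% and 44.5%, against 38.8%. Both words were in 8.44% and 3.43%, against 6.40%, so the high shares of the mitosis genes do not extend to the members as a whole.

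Genes of the DNA damage response and of cell cycle arrest were higher in the livers labelled Setd8-LKO. All 10 members among the p53 targets were called higher, and their median log2 fold change was 1.92. Eda2r, a receptor of the TNF receptor family, had 4, 15, 4, 7 and 8 normalized counts in untreated livers and 236, 199, 179 and 214 in the livers labelled Setd8-LKO. Its log2 fold change was 4.76 (SE 0.33, adjusted p = 1.10e-05). Tnfrsf10b, the death receptor for TRAIL, was at 4 or 5 in every untreated liver and between 117 and 142 in the others. Its log2 fold change was 4.73, with little spread in either group, and the filter on low counts fixed the lack of overlap. Phlda3, an inhibitor of Akt signalling, had a log2 fold change of 4.31. The 7 DNA repair members were all called higher, led by the exonuclease Exo1 (3.00) and the Fanconi anaemia gene Fancd2 (2.74). Atr, the kinase that senses stalled replication forks, was the most abundant of them, with 256, 213, 202, 243 and 233 against 774, 816, 767 and 658. With size factors over the listed genes 5 of the 10 p53 targets and 4 of the 7 repair genes stayed called higher, all with positive values.

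Secreted proteases of the senescence list were higher as well, although most genes of that list are not among those listed. Of 24 genes on it 8 are members, all called higher, and Il6, Il1b, Cxcl1 and Cdkn2a are among the 14 not listed. With size factors over the listed genes 5 of the 8 stayed called higher. Mmp12, the macrophage elastase, had 7.2 ± 10.5 normalized counts in untreated livers (SD, n = 5) and 172.5 ± 35.5 in the others (SD, n = 4), with a log2 fold change of 4.54. The collagenase Mmp13 had a log2 fold change of 3.05. Of the 5 members of the interferon-induced list 4 were called higher, with Cxcl10 (2.76) and Rsad2 (2.56) first, and Ifi44 was not called (edgeR adjusted p = 0.0596). With size factors over the listed genes 2 of the 5 were called higher.

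Structural genes of chromosomes and of the cell formed further groups. Of 20 genes on the list of H4K20 methylation, cohesin and condensin 6 are members, and all 6 were called higher. They are Kmt5a and 5 condensin subunits, while the cohesin genes, Ctcf, Kmt5b and Kmt5c are among the 14 not listed. Ncaph, a condensin subunit, went from 13, 11, 24, 24 and 18 to 176, 197, 154 and 129 (log2 fold change 3.19, SE 0.27), and Smc2 and Smc4, the condensin motor proteins, had 2.41 and 1.47. With size factors over the listed genes 2 of the 6 stayed called. Among genes of the nuclear envelope and lamina, Lmna was the 1 member of 17 genes, at 763, 859, 751, 989 and 673 against 1901, 1681, 1912 and 2163 (log2 fold change 1.25, SE 0.15). It was not called with size factors over the listed genes. Of 16 autophagy and lysosome genes only Ulk1, the kinase that starts autophagy, is listed, and it was lower (log2 fold change -1.19). Of 15 members among cytoskeletal, S100 and annexin genes 14 were called higher, and 6 with size factors over the listed genes. S100a11, a calcium-binding protein, rose from 46, 43, 70, 86 and 63 to 1118, 928, 721 and 923 (log2 fold change 3.90), and Anxa2 had a log2 fold change of 3.47. Tubb2a and Tubb2b, near-identical tubulin genes whose reads may be shared, had 2.57 and 2.65. S100a6 was not called (log2 fold change 1.54, edgeR adjusted p = 0.0640).

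The largest rises were in genes almost silent in untreated liver. Where every untreated liver was under 10, the filter on low counts admitted a gene only with all 4 other livers at 10 or more. Ly6d, a surface protein of epithelial and lymphoid cells, had 8, 10, 30, 13 and 11 normalized counts in untreated livers and 5445, 4558, 2645 and 4654 in those labelled Setd8-LKO. Its log2 fold change was 8.19 (SE 0.42, adjusted p = 2.39e-06). Sprr1a, a precursor of the cornified envelope of skin, went from 0, 0, 2, 5 and 0 to 1718, 1381, 208 and 776. Both genes were hardly counted in any untreated liver, and in both Setd8-LKO replicate 3 was the lowest of its group. Fam83a was at 937, 707, 717 and 1378 against 4 to 11. Corin, a protease that activates natriuretic peptide, was at 436, 362, 214 and 398 against 0 to 7. Krt20, a keratin of gut epithelium, had no read in untreated liver and 176, 148, 12 and 145 in the others, which is at least 183-fold higher when set against 3 reads over the 5 untreated libraries. Sult2a1, a bile acid and steroid sulfotransferase, had 3 reads in untreated and 745, 782, 17 and 390 in the others. Its ratio of 735 has a counting interval of 251.6 to 3566 that covers counting error only. Gm28078, Rbm24 and Pkp1, each with 1 or 2 untreated reads, were at 160 to 265, 75 to 291 and 89 to 222.

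Some abundant transcripts also rose. Clu (clusterin), a secreted chaperone, had 24769, 25201, 26074, 29158 and 24438 normalized counts in untreated livers and 61954, 57279, 52856 and 60434 in the others. Ccnd1, cyclin D1 of the G1 phase, was the 1 member among 15 listed CAR targets and had 577, 555, 490, 504 and 439 against 7988, 9323, 4450 and 11853. Its log2 fold change was 4.03 (SE 0.27, adjusted p = 8.96e-06), and 3.17 with size factors over the listed genes. The other 14 listed CAR targets, such as Cyp2b10, are listed in both comparisons.

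**Figure D3:**
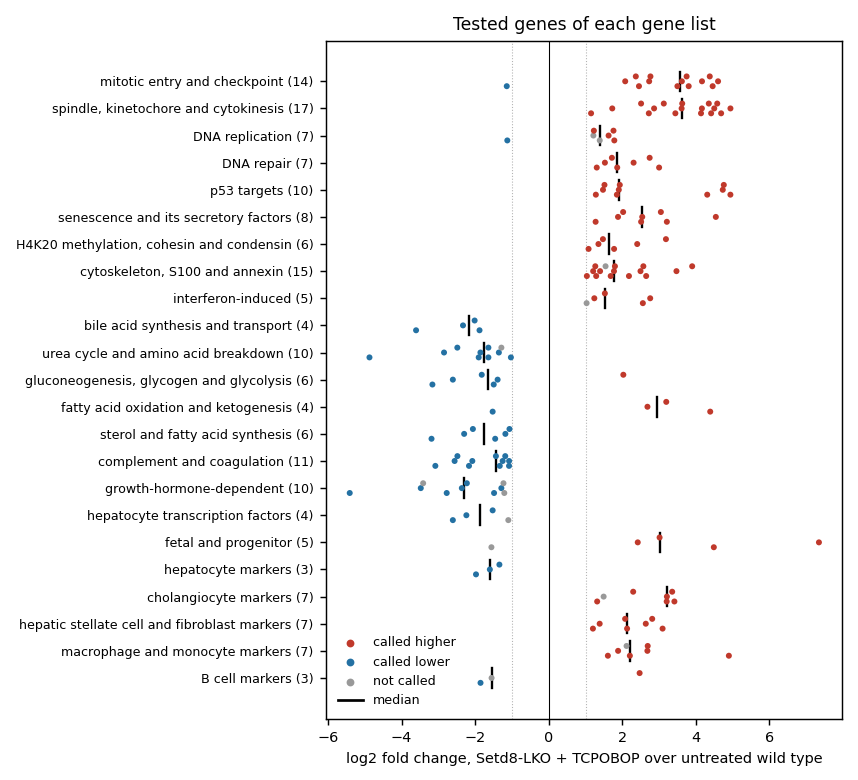
Log2 fold changes (x axis) of the tested members of each gene list with at least 3 of them, with the number tested in brackets, 1 point per gene coloured by its call and a bar at the list's median. The mitosis lists sit highest among the pathways, at medians of 3.56 and 3.63, and the lists of liver metabolism sit below 0 except fatty acid oxidation, in which 3 of 4 members were higher.

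Members with functions of differentiated hepatocytes mostly moved the other way. All 4 members among the 17 genes of bile acid synthesis and transport were called lower. Another 4 genes of that list are listed in both comparisons. Of these Abcc3 (1.04) and Abcc4 (3.30) were called higher, and Cyp7b1 (-4.94) and Slco1a1 (-4.07) lower. The rest, such as Cyp7a1 and Abcb11, are not listed. Cyp8b1, the sterol 12-alpha-hydroxylase that sets the cholic acid share of the bile acid pool, had 3950, 6631, 4382, 5504 and 4477 normalized counts in untreated livers and 359, 176, 757 and 345 in the others (log2 fold change -3.61, SE 0.40). Slc10a1, the transporter that takes up bile acids from blood, had -2.33. Of the 10 members of the urea cycle and amino acid breakdown 9 were called lower. Hal, the histidase that opens histidine breakdown, fell most, from 11383, 10865, 12426, 6267 and 11905 to 367, 287, 374 and 412 (log2 fold change -4.87, SE 0.26, adjusted p = 3.11e-06). The highest liver labelled Setd8-LKO was far below the lowest untreated one. Cps1, the first enzyme of the urea cycle and the most abundant of the list, was at 95832, 86336, 109517, 77558 and 113893 against 35951, 34408, 44226 and 36363. Tat, tyrosine aminotransferase, was not called (log2 fold change -1.29, edgeR adjusted p = 0.176), and its groups overlapped.

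Sugar and lipid genes were lower with a few exceptions. Pklr, the pyruvate kinase of hepatocytes, had 4193, 5928, 1457, 4561 and 2213 normalized counts against 557, 545, 613 and 693 (log2 fold change -2.61). Hk2, a kinase of the first step of glycolysis that resting hepatocytes hardly express, was higher, at 156, 168, 80 and 155 against 28 to 44. Pck1 and Fbp1 of gluconeogenesis had log2 fold changes of -1.5 and -1.82. All 6 members of sterol and fatty acid synthesis were called lower. Srebf1, the transcription factor of lipogenesis, was at 7534, 8845, 5082, 4171 and 5923 against 702, 875, 583 and 611 (log2 fold change -3.19, SE 0.26), and its target Fasn had -2.30. Of the fatty acid oxidation list only 4 genes are members. Fgf21, a fasting hormone of the liver, was higher (6, 13, 0, 4 and 4 against 122, 63, 148 and 123), as were Cyp4a14 (3.20) and Pdk4 (2.68). Ppara, the receptor that controls such genes, was lower (-1.53).

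Secreted liver proteins and growth hormone-dependent genes were lower. All 11 members of complement and coagulation were called lower. C9, the pore-forming complement protein, was at 16039, 14212, 16478, 16153 and 16774 against 1968, 1271, 2252 and 2025 (log2 fold change -3.08, SE 0.21), and C8a and C8b had -2.48 and -2.17. Of 10 growth hormone-dependent members 7 were called lower. Ghr, the growth hormone receptor, was at 11016, 11312, 7907, 7317 and 8860 against 1712, 1592, 1936 and 1974, and Igfals, which carries IGF1 in blood, had a log2 fold change of -2.77. Elovl3, a fatty acid elongase, was at 1963, 3787, 5258, 2458 and 5163 against 5, 10, 316 and 18. Cyp4a12a, Cyp2d9 and Mup20 were not called (edgeR adjusted p = 0.0667, 0.122 and 0.319).

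Among hepatocyte transcription factors 4 of 18 genes are members, and Hnf4a and Foxa1 to Foxa3 are not listed. Cebpa was at 9070, 12061, 6507, 7458 and 6747 against 1438, 1257, 1711 and 2680 (log2 fold change -2.24, SE 0.28). Onecut1 (HNF6) had -2.61 and Ppara -1.53. Alb itself fell less, with normalized counts from 630727 to 1230909 in untreated livers against 302416 to 437673, and was the most abundant member in all 9 livers. Other large falls were Spatc1l (370, 363, 334, 466 and 337 against 12, 15, 14 and 13), the chemokine Ccl27a (-5.20), the adipokine Serpina12 (-5.97), the pheromone-binding protein gene Mup4 (-5.73) and the noncoding genes C730036E19Rik (-6.41), Gm12718 (-5.38) and Slc13a2os (-5.01, antisense to Slc13a2). Gm8941 (-6.74) is a processed pseudogene, and Mup and Serpina1 genes are families of near-identical copies, so the share of reads given to each copy is uncertain.

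Markers of other liver cells moved with the same livers. Cholangiocyte markers were called higher for 6 of 7 tested members, and the summed counts of the 8 member markers were between 444 and 719 in untreated livers and 7788, 6297, 1694 and 4064 in Setd8-LKO replicates 1 to 4. Most of these sums was Spp1 (osteopontin), with 514, 427, 261, 471 and 318 in untreated livers and 6634, 5109, 1259 and 3329 in the others. Epcam, the epithelial adhesion molecule, was at 19, 25, 30, 23 and 12 against 297, 291, 63 and 160, and Krt19 was not called (edgeR adjusted p = 0.196). All 7 stellate cell and fibroblast members were called higher, with sums from 2375 to 3576 against 15391, 13894, 6390 and 8536. Acta2, Des and Lrat, defining genes of stellate cells, are not listed. Of 15 macrophage and monocyte markers 7 are members and 6 were called higher, led by Gpnmb (4.90), Cd14 (2.69) and Itgax (2.68), and Adgre1, Csf1r and Cd68 are not listed. No marker of sinusoidal endothelial, T or NK cells is listed, and neither of the 2 neutrophil members was called (S100a8 and S100a9). Jchain was higher (2.47) and Cd79b lower (-1.86) among B cell markers, and Alas2, of erythroid heme synthesis, was lower (-2.98). Of 10 hepatocyte markers 3 are members (Alb, Ttr and Serpina1a), and these were called lower. Cyp3a11, listed in both comparisons, was called higher (1.35), and Apoa1, Ahsg, Fgb, Apoc3 and Hamp are in the annotation but not listed. Of the 10 symbols 9 are in the annotation, which lacks Tf. The mouse transferrin gene is Trf, which is a member. Its normalized counts were 272007 to 337950 in untreated replicates 2 to 5 and 110453 to 143914 in the livers labelled Setd8-LKO. In untreated replicate 1 Trf was not among the 10 most abundant members, of which the last had 270626, so its count there was no higher than that. The part of such markers in the results above was not tested.

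The 4 livers labelled Setd8-LKO were not alike. Replicates 1 and 2 were closest, with a Pearson correlation of 0.988 over log2 normalized counts of the tested members, against 0.946 to 0.965 for the other pairs. Among members called higher, the median log2 difference from the untreated mean was 2.02, 1.97, 1.48 and 1.72 in replicates 1 to 4, and replicate 3 was the library nearest to untreated for 901 of 1625 genes (55.4%). Among members called lower the medians were -1.62, -1.61, -1.48 and -1.41. H19, a noncoding RNA of fetal liver, had 5052, 4547, 74 and 310 normalized counts there and 6, 1, 16, 5 and 47 in untreated livers (log2 fold change 7.35, SE 1.32), so the groups did not overlap but the livers differed widely. Of 5 tested members of the fetal and progenitor list 4 were called higher, and Cd44 was not. Sox4 and Cd24a of that list were lowest in replicate 3 as well (600 and 99). The 22 Mup member genes were highest in replicate 3 within its group, where for Mup5 replicate 4 had the same count (77), and their summed counts were 149037, 123591, 1020351 and 321339 there against 1612402 to 4217838 in untreated livers. Replicate 3 was not lowest for mitosis, with 4271 summed counts of the spindle list against 3900, 3549 and 3057 in replicates 1, 2 and 4. Left out of the fit, it leaves 1404 members called higher and 1047 lower of 2999 that passed the same filter.

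A further set of members separated the livers by run and not by group. The column names place untreated replicates 3 to 5 and Setd8-LKO replicate 4 in run A and the other 5 libraries in run B. In 28 members, chosen after their values were seen, every library of run A had at least 2 times the count of every library of run B, and no member showed the opposite. Cmss1 had 2481, 5539, 87047, 78643 and 54343 normalized counts in untreated livers and 4590, 2384, 2733 and 48885 in the livers labelled Setd8-LKO. The 4 high values are the 4 libraries of run A. Filip1l, Zc3h7a, Lars2, Jarid2, Peak1 and Cd44 had the same pattern, and the ratio of the run means lay between 4.22 and 19.4 over the 28 genes. Their median log2 fold change was -1.58 over all libraries. It was -0.62 in run A alone, -0.32 in run B alone and -0.41 when the run was fitted as a term. With the run as a term 2 were called lower (Camk1d and the pseudogene CT010467.2). For Cd44 the value was -1.56 over all libraries and 0.65 within run B. With 3 untreated libraries and 1 labelled Setd8-LKO in run A against 2 and 3 in run B, group means of such genes differ with the run.

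**Figure D4:**
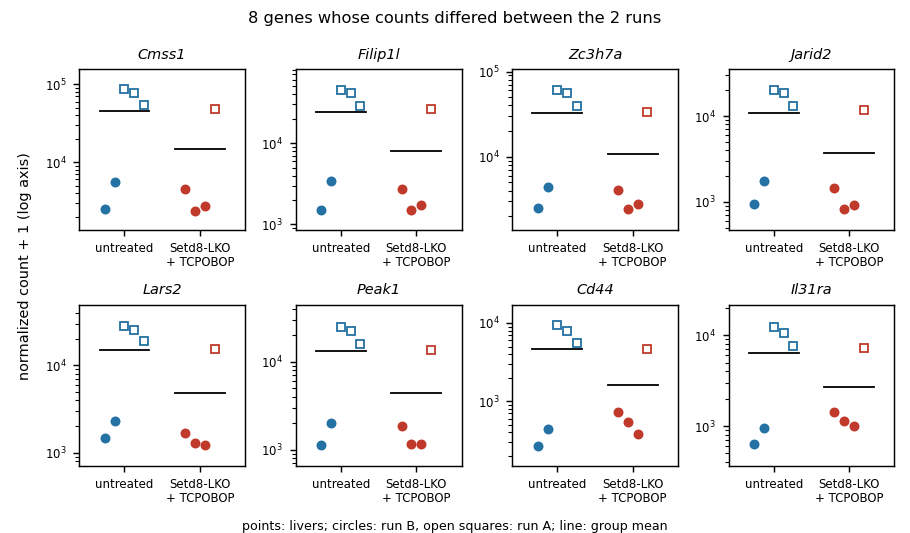
Normalized counts plus 1 (y axes, log scale) of 8 of the 28 run-separated members in each liver by group (x axes), with circles for run B, open squares for run A and a line at the group mean. In every panel the open squares of both groups lie together above the circles of both groups.

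Promoter marks in the same 2 conditions were read from 1 peak list per condition, so the spread between livers is unknown and intervals cover counting error only. Of 1322 members called higher that GENCODE types as protein-coding, 110 had an H3K27ac peak within 1000 bp of the start in the Setd8-LKO list only (8.32%, 95% Clopper-Pearson interval 6.89 to 9.94%). Of 834 called lower 18 did (2.16%, 1.28 to 3.39%), and of 18956 annotated genes not listed 880 did (4.64%). When 0.5 of the peak or more had to lie in the window, these 3 shares were 8.55%, 3.84% and 4.71%. A peak in the untreated list only was found at 0.83% of members called higher, 4.20% of those called lower (2.94 to 5.79%) and 0.72% of genes not listed. Most promoters had a peak in both lists, with 60.2% of members called higher and 69.8% of those called lower. Among the named members, Plk1, Bub1, Cenpf, Kif18b, Ska1, Tnfrsf10b, Ly6d, Fgf21 and Hk2 are of the first kind, with a fold enrichment of 7.50 at Plk1 and 13.9 at Kif18b. Alb, Hal, Sds, C9, Cyp2d9 and Ccl27a are of the second, with 21.0 at Alb and 6.11 at Hal.

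Accessible regions mapped by ATAC-seq split less clearly by direction. A peak in the Setd8-LKO list only was found at 2.95% of members called higher, 2.04% of those called lower and 0.74% of genes not listed. A peak in the untreated list only was found at 8.02%, 10.9% and 6.34%. Mki67, Fancd2, Eda2r, Cxcl10 and Rsad2 are named members with an ATAC peak in the Setd8-LKO list only.

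**Figure D5:**
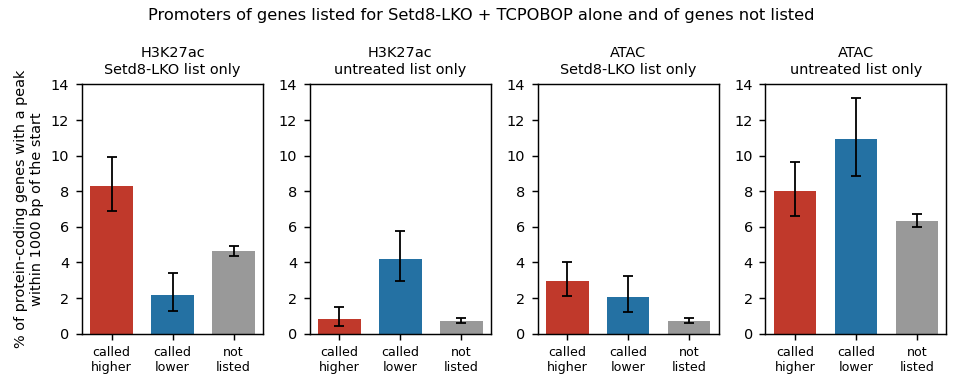
Share of protein-coding genes (y axes, percent) with an H3K27ac or ATAC-seq peak within 1000 bp of the start in 1 condition's list only, for members called higher, members called lower and genes not listed (x axes), with 95% Clopper-Pearson intervals. For H3K27ac the Setd8-LKO list alone marks 8.32% of members called higher and 2.16% of those called lower (3.84% when 0.5 of the peak or more had to lie in the window), and the untreated list alone 0.83% and 4.20%.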

How the data were processed

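Total RNA of whole livers was sequenced, and the authors filtered reads with PRINSEQ 0.20.4, aligned them to mm10 with HISAT2 2.1.0 and counted, normalized and tested them with metaseqR. The deposited tables hold raw counts per gene and library and the authors' normalized counts, which are rounded and were treated as a score. A normalized count is the raw count times 1 factor per library to within 0.126%. The tables list only genes the authors selected, and their fold changes and p-values were not used. Another 114 columns of transformed values per library were not used. Peak lists carry the fold enrichment and the −log10 p that the authors computed with MACS2 2.2.7.1, and the score of each island in the deposited SICER lists was read for the promoter table only and is not reported. 1 list per condition was used, and how replicates were pooled is not given in the sources used here.

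The quasi-likelihood test of edgeR 4.0.16 (glmQLFit, glmQLFTest; R 4.3.3) was run on raw counts with the authors' factors as offsets, for genes with at least 10 normalized counts in at least 4 libraries. P-values were adjusted by Benjamini-Hochberg over the 55450 genes of GENCODE M21, since the number the authors tested was not used, and all adjusted p values given are from this fit. Counts were simulated around the mean of each gene, with the same dispersion for every gene and no difference between runs. In them 92 of 100 genes changed by a log2 fold of 1.5 were found among 3767. Of those changed by 2, 99 of 99 were found, with 0 unchanged genes called. The simulation does not hold the run differences or the wide spread among the livers labelled Setd8-LKO, so it gives no error rate for these libraries. An exact permutation test of Kmt5a, two-sided, had p = 0.0159, the lowest value possible for 5 against 4 libraries in this form. Labels do not say whether libraries of a group were prepared apart, so p-values measure the spread between these libraries. DESeq2 1.42.0, limma 3.58.1 and other scalings served as alternatives, and each library was left out in turn.

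Members and gene lists were chosen with earlier results of these data known, so their counts are descriptions. Named were Kmt5a and Lmna, the 10 largest rises and 10 largest falls among called members without overlap and with a mean of at least 100, the up to 4 strongest, the most abundant and any opposed member of each list, the 5 most abundant members of each group, and members of lists that were not called. Clu, Lonp2, Met, 9330111N05Rik, the genes separated by run and those shown by their promoters were named besides. A few genes that these rules name are not reported here. Gene starts are those of GENCODE M21 on GRCm38 (3888 of 3900 identifiers matched), and promoter sequences are from RefSeq.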

Additional observations from a re-analysis of the deposited data

Results flagged for a closer look

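Among 268 groups of libraries (134 named genes in each of 2 conditions), 30 held 1 library far from the others of its group, where chance flags about 1 in 20. No explanation was tested, and the values are normalized counts of the library that stands apart.

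In Setd8-LKO replicate 3 the high values were 316 for Elovl3, 2375 for Cyp4a12a, 45425 for Mup7, 24027 for Tat, 265 for Gm28078 and 8 for Cd79b, and Hk2 was low at 80. Replicate 2 of that group was high for Insig1 (2834) and Acaca (970) and low for Kif18b (85) and Slc13a2os (4). Replicate 4 was high for Ppara (1063) and Cd44 (4703), of which Cd44 is among the genes separated by run.

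Untreated replicate 4 was high for the inflammatory genes Mmp12 (26), Icam1 (507), Oas1a (171), Ifi44 (91), Chil3 (11) and S100a8 (44), for C730036E19Rik (992) and for Spatc1l (466), and low for Hal (6267). Untreated replicate 2 was high for Pttg1 (423) and low for C9 (14212). Untreated replicate 3 was high for Ly6d (30), Cd24a (57) and Sult2a1 (3), replicate 5 for Mki67 (64) and Rbm24 (2), and replicate 1 for Gm28078 (1). The groups of Mmp12, Icam1 and Oas1a did not overlap with that library kept.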

How the results depend on the processing

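The size factors of DESeq2 and the replicate block moved the members most among the settings that use all libraries. TMM factors over the listed genes moved them little, with 1661 called higher and 1137 lower (median shift of the log2 fold change -0.013). With size factors from DESeq2 computed on the listed genes, 622 members were called higher, 619 of them among the 1625, and 1286 lower. Of the 133 named genes with a value under that scaling 13 lost their call, among them Lmna, Kmt5a, Atr, Icam1 and the 4 replication genes that were called higher. The replicate block gave 1049 higher and 806 lower, and 17 of 134 named genes lost their call, among them Alb, Ttr, Cps1, H19 and Exo1. The replicate numbers do not pair the libraries, as same-numbered libraries deviated together with correlations from -0.152 to 0.066. Within run A, where 3 libraries stand against 1, 18 and 1 members were called, and within run B, with 2 against 3, 555 and 676. These 2 settings were chosen after seeing the data and have fewer libraries. Leaving out each library in turn gave 1098 to 1521 higher and 937 to 1067 lower. The filter still asked for at least 4 libraries, so fewer members were tested than the 3256 of the main fit. They were 2969 to 2999 without a library labelled Setd8-LKO and 3208 to 3225 without an untreated one. The counts called thus also differ with the genes that could be tested, and the same holds within each run. For Cd44 the direction turned with the run as a term (0.17) and within run B (0.65), and the cause was not tested. The share of members called lower with an H3K27ac peak in the Setd8-LKO list only moved from 2.16% to 3.84% when 0.5 of the peak or more had to lie in the window. No called member that could be compared changed direction under any setting run. The column sums are no depth, so limits of detection were not set beyond the floor of 3 reads.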

Other observations

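Tgm2, a transglutaminase, and Rprd1b, a regulator of RNA polymerase II, are members that lie on chromosome 2, and their counts ran in parallel in all libraries. Tgm2 had 2381, 2577, 3455, 4292 and 2308 normalized counts in untreated livers and 17894, 16613, 18336 and 13337 in those labelled Setd8-LKO. Rprd1b had 2568, 2836, 3375, 4447 and 2361 against 15981, 15032, 16418 and 12002. The annotation places the 2 genes on opposite strands with overlapping ends, so that reads of one may be counted for the other, and both were named after their values were seen. Neat1, the RNA scaffold of paraspeckles, was at 5556, 5377, 4704, 4442 and 3094 against 8837, 10830, 14023 and 10540 (log2 fold change 1.25). Fmo5, a monooxygenase, was at 13728, 12111, 18304, 13623 and 20745 against 45453, 47421, 50253 and 59951 (log2 fold change 1.69). All 4 genes were without overlap between the groups.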
